A study of Mus musculus with 8 samples.

Results

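The genes described here carry out antigen presentation on MHC class I molecules, and 10 of them were followed in mouse mesonephric tubules: the heavy chain genes H2-K1, H2-D1, H2-Q7 and H2-T23, the light chain gene B2m, the peptide transport and loading genes Tap1, Tap2 and Tapbp, and the immunoproteasome genes Psmb8 and Psmb9. The members were every non-control probe on the array whose accession matched one of these 10 genes. That gave 10 of the 19752 genes named on the array and 11 of its 55681 distinct probes, with a pair for H2-K1 and 1 for each other gene. By the RefSeq table of assembly GRCm38.p6, 9 of the genes lie on chromosome 17 and B2m lies on chromosome 2.

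Class I molecules show short peptides from inside the cell to cytotoxic T cells and natural killer cells. The proteasome cuts proteins into peptides, the transporter made of the Tap1 and Tap2 products carries them into the endoplasmic reticulum, tapasin (Tapbp) holds the empty heavy chain at the transporter, and the heavy chain reaches the cell surface together with β2-microglobulin (B2m). Most of these genes respond to interferon, and they are usually low in early embryonic tissue and high in white blood cells.

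The study set mesonephric tubules of wild-type embryos, which its design describes as senescent, against tubules of p21-/- embryos, described as non-senescent. p21, the product of Cdkn1a, inhibits cyclin-dependent kinases and can arrest the cell cycle. Tubules were microdissected from frozen sections stained with toluidine blue, and the total RNA of each sample was read in 1 colour (Cy3) on 1 Agilent array. The wild-type group had 5 arrays and the group labelled p21 knockout had 3, all given as strain C57/BL6. The embryonic stage, the number of embryos in a sample and the kind of knockout allele are not given in the sources used here. Nothing in them says that the samples came from separate embryos, so p-values here cover the spread among these samples, which may be technical. All values below are log2 processed intensities minus the 75th percentile of the array. They compare 1 probe between arrays and not 1 gene with another.

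Each array had between 82.2% and 89.2% of its probes well above background, and no spot was saturated. The 8 arrays lay on 3 slides that each held both groups. Precision is limited by how few arrays there were. The Cdkn1a signal did not separate the groups. One probe differed by −0.19 (standard error 0.54) and the other by −0.24 (standard error 0.36), with overlapping groups for both, and the sources used here do not place the probes against the deletion. Every direction below therefore rests on the label, and the group is written as labelled p21-null. Of 12 markers of mesonephric tubule and duct, 11, Pax2 and Cdh16 among them, were well above background on all 8 arrays. The mean of the 12 ran from −1.57 to 1.11 over the wild-type arrays and from −1.38 to −0.29 over the arrays labelled p21-null.

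The upstream sequences of H2-K1, H2-D1, H2-Q7 and B2m are shown because their chains are parts of the class I molecule itself. That of the heavy chain gene H2-T23 is not shown. The Tap1 sequence is shown because it is nearly shared with Psmb9. Each is the 250 bases before the RefSeq start of the gene in GRCm38.p6, read 5′ to 3′ on the strand of the gene. Capitals mark matches, on either strand, to 3 motifs of 10 letters searched without mismatch: a κB site, which the NF-κB family binds, an interferon regulatory factor element, and the core of an interferon-stimulated response element, the last added after the sequences had been seen.

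H2-K1 (chr17:34000348-34000597, minus strand): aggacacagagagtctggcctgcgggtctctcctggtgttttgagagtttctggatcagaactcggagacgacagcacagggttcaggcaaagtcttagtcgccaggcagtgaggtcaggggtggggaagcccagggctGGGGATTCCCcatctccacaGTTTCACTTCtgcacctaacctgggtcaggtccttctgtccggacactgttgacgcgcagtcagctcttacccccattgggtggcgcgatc

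H2-D1 (chr17:35262844-35263093, plus strand): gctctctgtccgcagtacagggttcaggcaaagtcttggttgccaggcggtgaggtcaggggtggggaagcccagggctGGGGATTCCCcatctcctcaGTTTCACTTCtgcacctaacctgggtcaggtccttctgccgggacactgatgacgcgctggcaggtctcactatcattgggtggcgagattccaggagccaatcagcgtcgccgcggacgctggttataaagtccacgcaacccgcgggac

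H2-Q7 (chr17:35438905-35439154, plus strand): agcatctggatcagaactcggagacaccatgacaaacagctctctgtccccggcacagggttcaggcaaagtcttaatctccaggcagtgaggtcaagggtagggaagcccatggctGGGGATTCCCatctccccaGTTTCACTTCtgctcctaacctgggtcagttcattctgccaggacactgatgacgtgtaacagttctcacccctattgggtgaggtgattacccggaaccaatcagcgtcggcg

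B2m (chr2:122147437-122147686, plus strand): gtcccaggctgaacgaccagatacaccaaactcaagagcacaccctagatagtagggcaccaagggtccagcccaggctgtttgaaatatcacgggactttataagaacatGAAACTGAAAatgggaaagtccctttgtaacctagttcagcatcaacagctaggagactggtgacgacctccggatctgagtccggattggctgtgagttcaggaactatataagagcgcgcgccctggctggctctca

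Tap1 (chr17:34187306-34187555, plus strand): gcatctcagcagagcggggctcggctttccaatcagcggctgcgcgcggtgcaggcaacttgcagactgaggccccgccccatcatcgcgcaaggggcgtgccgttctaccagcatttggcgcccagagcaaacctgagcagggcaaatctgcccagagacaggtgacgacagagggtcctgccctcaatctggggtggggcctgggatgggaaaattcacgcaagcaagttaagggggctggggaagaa

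H2-K1, H2-D1 and H2-Q7 each held the κB site, the first run of capitals, followed by the interferon regulatory factor element on the other strand, the second run. The κB site began at −111 in H2-K1, −171 in H2-D1 and −133 in H2-Q7. The bases between the site and the element numbered 10, 10 and 9. B2m held the response element core at −139, its only run of capitals. H2-T23, not shown, held that core at −124 on the other strand, but neither the κB site nor the interferon regulatory factor element. Over 27025 RefSeq promoters cut to the same window, 0.0814% held the κB site, 1.47% the interferon regulatory factor element and 3.04% the response element core. Among the 9 members with a promoter in the table, 3, 3 and 2 held them. Shorter motifs were also searched but are not marked. A Y box (GATTGG) was in 6 of the 9 members, against 15.1% of promoters. A CRE-like X2 box (TGACGC) was in 2, against 6.14%, and a GC box (GGGCGG) in 3, against 32.9%. The windows of H2-K1, H2-D1 and H2-Q7 share long stretches of sequence, so their matches are not independent of each other. The Tap1 window holds none of the 3 marked motifs. Of its 250 bases, 225 are also in the window of Psmb9, which is transcribed in the opposite direction. A match in these letters is a description and not a measured binding site.

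Of the 10 class I genes, 7 had signals 2.13-fold to 5.51-fold higher in the arrays labelled p21-null without overlap of the groups, but none passed the adjusted threshold. Of the 11 probes, 8 (7 genes) had every array labelled p21-null above every wild-type array. Over all 50046 probes tested, 4.33% had groups set apart in that direction. At an unadjusted p under 0.05 there were 8 of 11 member probes, all higher, against 9.77% of all probes (5.92% higher, 3.85% lower). No member probe had every array labelled p21-null below every wild-type array, against 2.41% of all probes. The mean was higher for 10 of 11, against 48.2% of all probes. At a limma adjusted p under 0.05 there were 0 of 11, against 0% of all probes, and the smallest adjusted p of any probe was 0.169. The median difference of the 10 genes was 1.34, beside −0.026 over all probes. The exceptions were B2m, whose groups overlapped although its mean was higher, and Tap1 and Psmb9, whose means differed by less than the spread between replicates.

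**Figure D1:**
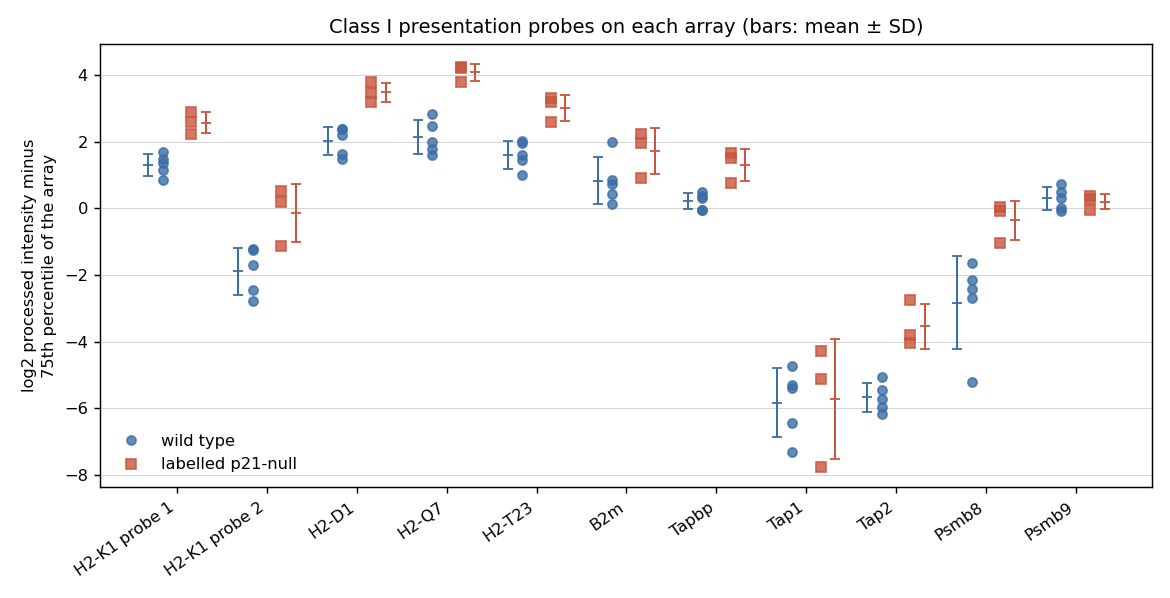
Log2 processed intensity minus the 75th percentile of the array for the 11 class I presentation probes, with 5 wild-type arrays as circles, 3 arrays labelled p21-null as squares, and bars at the mean ± SD. Squares lie above all circles for H2-K1 (both probes), H2-D1, H2-Q7, H2-T23, Tapbp, Tap2 and Psmb8, and the groups overlap for B2m, Tap1 and Psmb9.

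Among the heavy chains, H2-K1 and H2-D1 encode the classical molecules that present peptides to CD8 T cells. Probe 1 of H2-K1 stood at 1.69, 1.36, 0.84, 1.15 and 1.47 in wild type, given here and below in the order of replicates 1 to 5, and at 2.59, 2.24 and 2.88 in replicates 1 to 3 labelled p21-null. Their means were 1.30 ± 0.32 (SD, n = 5) and 2.57 ± 0.32 (SD, n = 3), so the groups lay 1.27 apart (standard error 0.31, limma adjusted p = 0.307). The lowest array labelled p21-null was clear of the highest wild-type array.

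Probe 2 of H2-K1, read by 10 spots on each array, gave −1.71, −2.79, −2.46, −1.23 and −1.26 in wild type and 0.18, −1.12 and 0.52 in the arrays labelled p21-null. The groups differed by 1.75 (standard error 0.52, limma adjusted p = 0.344). The groups were again apart, but here labelled p21-null replicate 2 lay only just above wild-type replicates 4 and 5, while the other two lay far above. Both H2-K1 probes pointed the same way.

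H2-D1 stood at 2.20, 1.49, 1.62, 2.38 and 2.37 in wild type and at 3.78, 3.20 and 3.45 in the arrays labelled p21-null. The wild-type mean was 2.01 ± 0.42 (SD, n = 5) and the other 3.48 ± 0.29 (SD, n = 3), which is 2.76-fold or 1.46 on the log2 scale (standard error 0.34, limma adjusted p = 0.305). The spread within each group was a fraction of the gap between them.

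H2-Q7 and H2-T23 belong to the nonclassical genes. H2-Q7 encodes a Qa-2 molecule, which exists in membrane-bound and secreted forms, and H2-T23 encodes Qa-1, which presents signal peptides of other class I chains to natural killer cells. H2-Q7 stood at 1.99, 1.60, 1.77, 2.47 and 2.84 in wild type and at 4.23, 3.78 and 4.20 in the arrays labelled p21-null, which is 3.83-fold or 1.94 on the log2 scale (standard error 0.36, limma unadjusted p = 0.000472, adjusted p = 0.298). H2-T23 stood at 2.03, 1.45, 0.99, 1.61 and 1.95 against 3.18, 2.58 and 3.30, or 1.42 higher (standard error 0.35, limma adjusted p = 0.307). In both genes labelled p21-null replicate 2 was the lowest of its group and still lay above all 5 wild-type arrays. Class I heavy chain genes are close copies of each other and the files hold no probe sequences, so a probe may read more than its own gene, and the 5 heavy chain probes are not independent measurements.

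B2m encodes the light chain that all these heavy chains need, and it is the only member off chromosome 17. Its probe stood at 0.14, 0.74, 0.42, 0.84 and 2.0 in wild type and at 2.23, 0.92 and 1.97 in the arrays labelled p21-null. The wild-type mean was 0.83 ± 0.71 (SD, n = 5) and the other 1.71 ± 0.69 (SD, n = 3). Wild-type replicate 5 was as high as the arrays labelled p21-null, and labelled p21-null replicate 2 lay below it, though above the other wild-type arrays. The difference of 0.88 had a standard error of 0.49 and a 95% interval from −0.22 to 1.99 (limma unadjusted p = 0.105, adjusted p = 0.626). Without wild-type replicate 5 it was 1.17, without labelled p21-null replicate 2 it was 1.27, and without labelled p21-null replicate 1 it was 0.62.

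**Figure D2:**
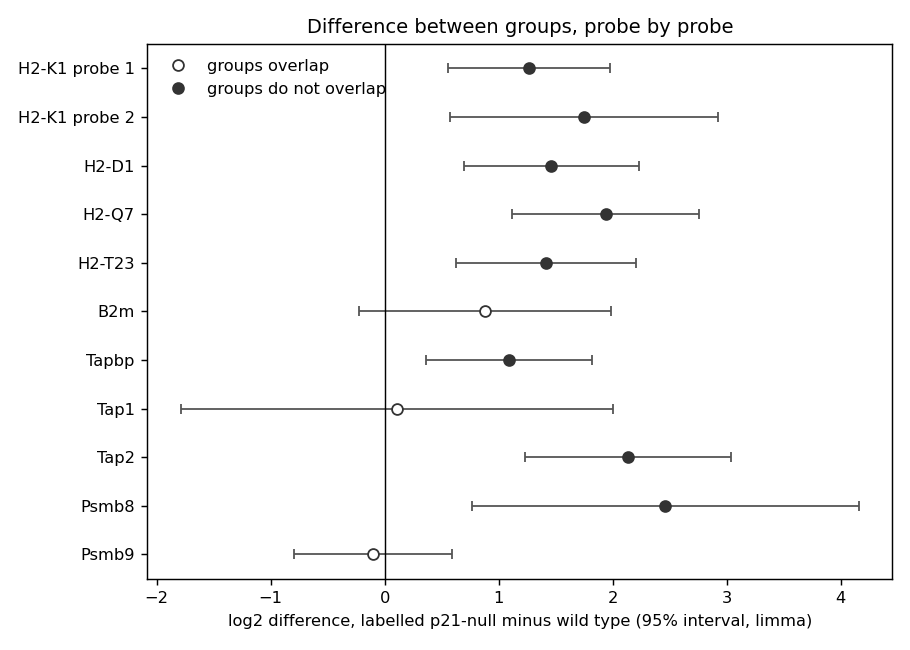
Log2 difference, labelled p21-null minus wild type, for each of the 11 probes with its 95% interval from limma. Filled points mark probes whose groups do not overlap. Their intervals lie above 0, while those of B2m (−0.22 to 1.99), Tap1 (−1.78 to 2.01) and Psmb9 (−0.79 to 0.59) include it.

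To compare the chromosome 17 members with B2m directly, the B2m value of each array was subtracted from every probe and the fit repeated. The median difference of the 9 chromosome 17 genes was 1.42 and that of B2m 0.88, so the median relative to B2m was 0.53. Of the 10 chromosome 17 probes, 8 were higher relative to B2m, by 0.21 (Tapbp) to 1.58 (Psmb8), and Psmb9 and Tap1 were lower, by −0.98 and −0.77. H2-Q7 stood at 1.85, 0.86, 1.35, 1.64 and 0.84 relative to B2m in wild type and at 2.0, 2.86 and 2.23 in the arrays labelled p21-null. Its groups did not overlap, nor did those of Psmb8, so 2 of 10 probes had every array labelled p21-null above every wild-type array after B2m was taken away, against 0.815% of all probes. At an unadjusted p under 0.05 there was 1 of 10, Psmb8 (limma adjusted p = 0.382), against 13% of all probes, most of them lower relative to B2m, while 0.873% were higher. At an adjusted p under 0.05 there were 0 of 10, against 0.00799% of all probes. Taking B2m away adds its spread to every probe, and limma shares the spread across probes, so its standard errors are wide here. For H2-Q7, higher by 1.06, the standard error was 0.67 from limma and 0.33 from the residuals of that probe alone. For Psmb8 the values were 0.75 and 0.74. A missed threshold in this fit therefore does not show that the chromosome 17 members and B2m behaved alike.

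Peptide loading and transport genes differed from each other. Tapbp stood at 0.31, 0.49, −0.038, −0.047 and 0.37 in wild type and at 1.50, 0.77 and 1.66 in the arrays labelled p21-null. Its means were 0.22 ± 0.25 (SD, n = 5) and 1.31 ± 0.48 (SD, n = 3), which is 2.13-fold or 1.09 on the log2 scale (standard error 0.32, limma adjusted p = 0.338). The groups did not overlap.

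Tap2 was dim, and its probe was well above background on 3 of 5 wild-type arrays and all 3 arrays labelled p21-null. It stood at −5.44, −5.72, −5.96, −6.15 and −5.07 against −4.02, −3.80 and −2.76, which is 4.40-fold or 2.14 on the log2 scale (standard error 0.40, limma unadjusted p = 0.000461, adjusted p = 0.298). With normexp background correction, which shrinks differences between dim spots, the difference was 1.20. All 3 arrays labelled p21-null were higher than any wild-type array.

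Tap1, the partner of Tap2 in the transporter, did not share that pattern. It stood at −4.73, −6.43, −7.31, −5.38 and −5.31 in wild type and at −7.75, −4.28 and −5.13 in the arrays labelled p21-null, or 0.11 higher (standard error 0.84), with a 95% interval from −1.78 to 2.01. The lowest and the highest of the 8 arrays were both labelled p21-null. The probe was well above background on 3 of 5 and 2 of 3 arrays, and the interval includes the difference of Tapbp.

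The immunoproteasome subunits replace constitutive subunits and change the peptides that are cut. Psmb8 stood at −2.14, −2.43, −5.21, −2.70 and −1.65 in wild type and at 0.033, −1.03 and −0.092 in the arrays labelled p21-null. The wild-type mean was −2.82 ± 1.39 (SD, n = 5) and the other −0.36 ± 0.58 (SD, n = 3), or 2.46 higher (standard error 0.75, limma adjusted p = 0.352). Wild-type replicate 3 was far below the other arrays of its group, and without it the difference was 1.87. The groups did not overlap.

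Psmb9, which sits in the same proteasome as Psmb8 and shares its upstream sequence with Tap1, stood at 0.32, 0.73, −0.075, 0.014 and 0.49 in wild type and at −0.062, 0.29 and 0.36 in the arrays labelled p21-null. The difference was −0.099 with a standard error of 0.31 and a 95% interval from −0.79 to 0.59 (limma adjusted p = 0.957). All 3 arrays labelled p21-null lay within the wild-type range. The upper end of that interval is below the differences measured for Psmb8, Tapbp, Tap2 and every heavy chain probe. No test of Psmb9 against another member was made apart from the comparison with B2m.

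Repeated spots show how precise a single array was. The 7 to 10 spots of H2-K1 probe 2 on an array had an SD between 0.035 and 0.14, against a wild-type SD of 0.71 between arrays. The pair of B2m spots had an SD between 0.0095 and 0.16. For Tap1 the SD of 9 or 10 spots ran from 0.20 to 1.16, and on wild-type replicate 3 they spanned −8.23 to −5.31. The spread of H2-K1 and B2m was thus mostly between arrays, while that of Tap1 was partly within them. Of 240 member spots over the 8 arrays, 6 were marked as outliers by the scanner software and left out.

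**Figure D3:**
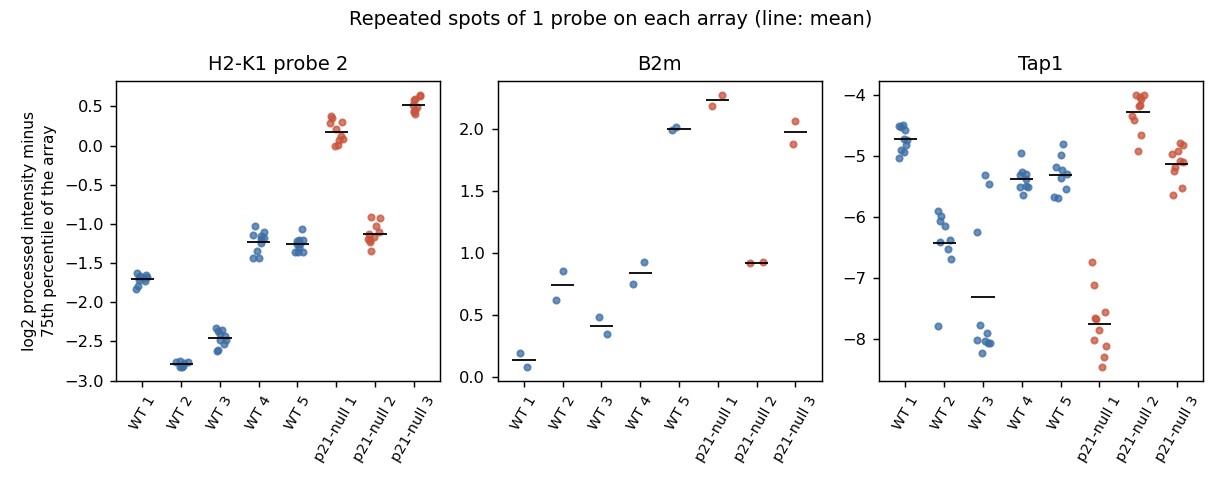
Log2 processed intensity minus the 75th percentile of the array for each spot of the H2-K1 probe 2, B2m and Tap1 probes, by array, with the mean as a line. H2-K1 and B2m spots lie close together on each array. Tap1 spots are scattered, most of all on wild-type replicate 3.

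Within slides the differences varied in size, and that of B2m was near 0 on slides 2 and 3. On slides 1, 2 and 3 H2-K1 probe 1 differed by 1.29, 1.09 and 1.41, H2-D1 by 2.01, 0.81 and 1.08, H2-Q7 by 2.45, 1.31 and 1.36, and H2-T23 by 1.69, 0.97 and 1.35. Tap2 differed by 1.68, 2.35 and 2.30, Tapbp by 1.24, 0.82 and 1.29, and Psmb8 by 3.29, 1.67 and 1.56. That all 7 genes were higher in the array labelled p21-null on each slide follows from their groups not overlapping. Only the sizes within slides add to it. The difference of H2-K1 probe 2 on slide 2 was 0.10. B2m differed by 1.80 on slide 1 but by 0.085 and −0.029 on slides 2 and 3. Slides 2 and 3 held 1 array of each group, so these values have no spread of their own.

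**Figure D4:**
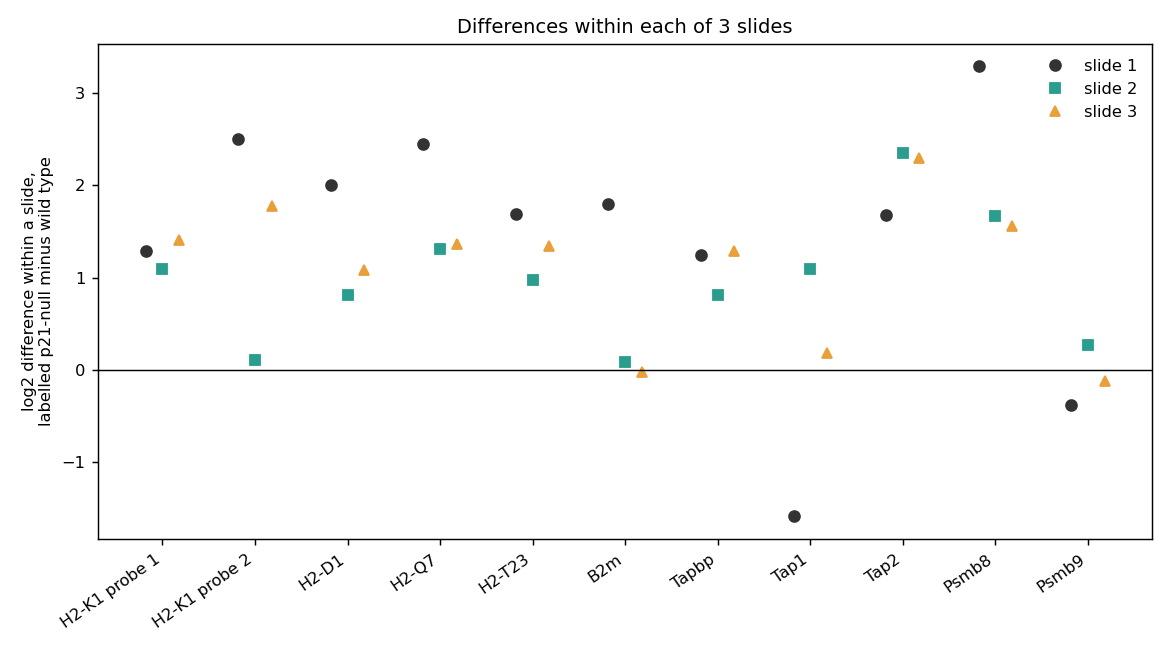
Log2 difference, labelled p21-null minus wild type, within each of the 3 slides for the 11 probes; slide 1 sets 1 array labelled p21-null against the mean of 3 wild-type arrays, slides 2 and 3 set 1 against 1. The heavy chains, Tapbp, Tap2 and Psmb8 lie above 0 on every slide, which follows from their groups not overlapping. B2m lies near 0 on slides 2 and 3.

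The members did not all follow the same arrays. After the mean of each group was taken away, H2-K1 probe 1 and H2-T23 moved alike over the 8 arrays (r = 0.93, rank 25 among 18039 genes with a symbol), and H2-D1 and H2-Q7 moved alike (r = 0.87), but H2-K1 and H2-D1 less so (r = 0.42). B2m was closest to H2-Q7 among the members (r = 0.79). Tap1 and Tap2 had r = 0.44. The genes most like B2m were Sectm1a, Ccl24 and Ccl9 (r = 0.98, 0.98 and 0.97), and those most like H2-K1 were Engase, Ptcd3 and C5ar1 (each r = 0.97). These values share 8 arrays and their scaling, and the top ranks among 18039 genes are high by selection.

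The other class I and class I-like chains were higher in part. Of 28 on the list, 20 were tested; 17 were higher and 3 lower, with a median difference of 0.57, and 7 had an unadjusted p under 0.05, all higher, against 5.92% of all probes, while 0 passed the limma adjusted threshold. H2-Q10, whose product is a class I molecule secreted by liver, had the largest difference of the list at 3.54 with a standard error of 0.92. H2-Q2, H2-T3 and H2-Bl, of the Q and T regions, differed by 2.25, 2.26 and 2.36. H2-Q4, the brightest probe of the list, stood at 6.06 ± 0.26 (SD, n = 5) and 6.12 ± 0.40 (SD, n = 3), which is 0.068 apart. Its 95% interval, from −0.63 to 0.77, ends below the difference of every heavy chain member probe. The intervals of H2-K1 probes 1 and 2, H2-T23 and H2-D1 overlap it, beginning at 0.56, 0.57, 0.63 and 0.70. That of H2-Q7 begins at 1.12. No test of H2-Q4 against a member probe was made. H2-M3, which presents formylated peptides, differed by 0.23 with a standard error of 0.68. Its 95% interval, from −1.31 to 1.77, includes the differences of H2-K1 probe 1, H2-D1 and H2-T23. The restrictions on close copies apply to these probes too.

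The rest of the class I pathway had median differences well below that of the members. Of 38 other antigen processing genes 23 were higher and 15 lower, with a median difference of 0.085, and 4 had an unadjusted p under 0.05, all higher. That is 4 of 38, against 5.92% of all probes that were higher at this threshold. The count was 1 without labelled p21-null replicate 1 or without replicate 3. Among them were Erap1, the aminopeptidase that trims peptides in the endoplasmic reticulum (1.57), Irf8, an interferon regulatory factor of myeloid cells (1.44), and Tapbpl, a relative of tapasin (0.86). None of the 38 passed the limma adjusted threshold. The 14 constitutive proteasome genes had a median difference of 0.26 and none with an unadjusted p under 0.05 by limma; the 4 with the smallest p were Psmb7 (0.58), Psmb1 (0.39), Psmb2 (0.35) and Psma3 (0.35).

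**Figure D5:**
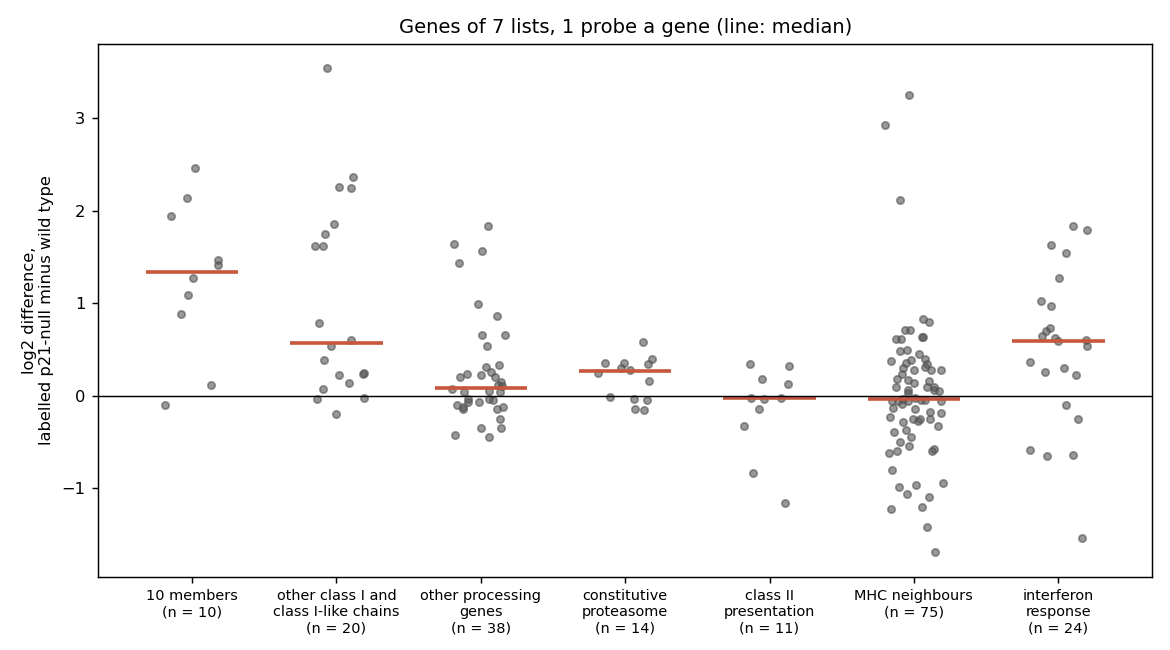
Log2 difference, labelled p21-null minus wild type, for each gene of 7 lists, 1 probe a gene, with the median as a line. The median of the 10 members is 1.34, that of the other class I chains 0.57, and those of class II genes and of other genes of the MHC lie at −0.030 and −0.034.

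Class II genes and other genes of the MHC had medians near 0. Of 11 genes of class II presentation, which include Ciita and Cd74 on other chromosomes, 4 were higher and 7 lower, with a median of −0.030, and 0 had an unadjusted p under 0.05 by limma or passed the adjusted threshold. Those with the smallest p were H2-DMb1 (−1.16), H2-DMb2 (−0.83), H2-DMa (0.32) and H2-Ab1 (−0.33). Of 75 tested genes of the MHC with no class I role 36 were higher and 39 lower, with a median of −0.034. Of these, 5 were higher and 4 lower at an unadjusted p under 0.05, against 5.92% and 3.85% of all probes, and 0 passed the limma adjusted threshold. The complement genes Cfb and C2 (2.93 and 2.12) and the apolipoprotein gene Apom (3.26), all strongly made by liver, were higher, and Gabbr1, a GABA receptor gene, was lower (−1.22). Over the 1132 tested probes of chromosome 17 the median was −0.0055, and 6.63% had every array labelled p21-null above every wild-type array, against 4.33% of all probes.

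Interferon response genes outside the MHC were higher for 18 of 24 tested, with a median of 0.59. At an unadjusted p under 0.05 there were 5, all higher, against 5.92% of all probes, and 0 passed the limma adjusted threshold. Among those with the smallest p were Xaf1 (1.02), Parp14 (1.79) and Ifit2 (0.73). Their mean ran from −3.19 to −2.08 in wild type and was −1.41, −2.74 and −1.87 in the arrays labelled p21-null, so the groups overlapped.

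Markers of white blood cells, of liver and of erythroid cells were higher together with the class I genes. Of 19 tested leukocyte markers 16 were higher, against 48.2% of all probes. At an unadjusted p under 0.05 by limma there were 12, all higher, against 5.92% of all probes. Only 1 of the 19 had every array labelled p21-null above every wild-type array, against 4.33% of all probes. The mean of the 19 ran from −0.79 to 0.95 over the wild-type arrays and from 0.72 to 1.56 over the arrays labelled p21-null, a difference of 1.32. All 19 were well above background on all 8 arrays. Tyrobp, an adaptor of myeloid receptors, differed by 1.62, whereas Ptprc, which encodes the leukocyte antigen CD45, differed by 0.21 with a standard error of 0.35. Wild-type replicate 5 was the highest wild-type array for the leukocyte mean (0.95) and for B2m (2.0). This was not particular to leukocytes. The same array was also the highest of wild type for the liver (3.22), erythroid (3.05), endothelial (0.66) and lymphocyte and natural killer (−3.38) means. It was not the highest for the mean of mesonephric tubule and duct markers (−1.32). With the leukocyte mean as a covariate, 2 of 11 member probes had an unadjusted p under 0.05 by limma, H2-Q7 (1.27) and Tap2 (1.33). The difference of Psmb8 was 0.33 and that of B2m was −0.40. Over all probes the count was then 1669 in place of 4889. The leukocyte mean itself differed between the groups, and this fit widened the standard errors of the member probes. That of H2-D1 was 0.52 in place of 0.34, with a difference of 1.02. With 8 arrays the fit cannot separate leukocyte content from group, and the part of leukocytes in the class I values was not tested. Lymphocyte and natural killer markers had a mean difference of 0.22 and endothelial markers of 0.18. Liver markers differed by 2.48 and erythroid markers by 1.76. Of 12 liver markers 12 were higher, 11 of them at an unadjusted p under 0.05 by limma, and 3 had groups set apart upward. Of 12 erythroid markers 11 were higher, 9 at that threshold, and 8 had groups set apart upward. The shares of all probes are those given for leukocytes. No fit with the liver or erythroid mean as a covariate was made, and the part of these cell types in the class I values was not tested. H2-Q10, Cfb, C2 and Apom are also made in liver, but they were named for the smallest p in their lists. Their source here was not tested. In bulk tissue, more cells of a type and more RNA per cell cannot be told apart.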

How the data were processed

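Per the file headers, Feature Extraction 10.7.3.1 wrote the 8 deposited files, with linear spot intensities; the processed intensity is corrected for background by that software and not normalized between arrays. The authors also deposited a table of log2 values, for which the submitters' processing notes name limma; it served as an alternative. Accessions were matched without versions to RefSeq GRCm38.p6, which named 26056 probes and left 29625 unnamed. Outlier spots were left out, spots of a probe were averaged, and a probe was kept if 3 or more of the 8 arrays had it well above background (50046). All 11 member probes passed this filter. The test was limma's lmFit and eBayes (version 3.58.1, R 4.3.3) on 5 against 3 arrays without covariates, adjusted by Benjamini-Hochberg over all kept probes at 0.05, and it was tested on simulated data. In lists, the probe of highest mean stood for its gene. Named genes were the 10 members, up to 4 genes of smallest p in each list and the 3 genes most like B2m and H2-K1; H2-Q4, H2-M3, and markers named for their levels were chosen after their values were seen. One gene that this rule names is not reported here. The members and lists were chosen with earlier results of these data known. Upstream sequences are from RefSeq, GRCm38.p6; Tap2 was named without one.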

Additional observations from a re-analysis of the deposited data

Results flagged for a closer look

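The mean of the 38 other antigen processing genes stood at 0.26 on wild-type replicate 3, below the other wild-type arrays, which lay between 0.53 and 0.62; its gap was 0.744 of the whole range, above the 0.71 that Dixon's test allows for 5 samples. Of 23 wild-type groups examined this was the only one, and chance flags about 1 in 20.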

How the results depend on the processing

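Each of the 11 probes was recomputed under up to 21 alternatives, 228 values in all, of which 219 kept their direction and stayed short of the adjusted threshold. The other 9 changed sign: B2m with the leukocyte mean as a covariate (−0.40), Psmb9 without single arrays (−0.19 to 0.030), and Tap1 with slide as a fixed block (−0.32), with the leukocyte covariate (−0.17) and without single arrays (−0.61 to 1.12). No member probe passed the adjusted threshold under any alternative, the lowest adjusted p being 0.051 for Tap2. The count of member probes at an unadjusted p under 0.05 ran from 8 to 9 without single arrays. It was 2 with the leukocyte covariate, which also widened the standard errors. The median relative to B2m ran from 0.33 to 0.80 without single arrays and was 1.09 with the leukocyte covariate. The count of other processing genes ran from 1 to 4 without single arrays, was 2 with the stricter filter and 0 with the leukocyte covariate. Over all probes the count at an unadjusted p under 0.05 ran from 2599 to 5472 without single arrays and was 9644 with array weights and 1669 with the leukocyte covariate; the count past the adjusted threshold was 3 with normexp correction, 43 with array weights and 0 to 1 without single arrays. No pairing by replicate number was visible: same-numbered arrays correlated at 0.070, −0.071 and −0.076 in their deviations from the group means. With so few arrays this cannot show that the samples were unpaired. With the replicate block over the 6 arrays that share a number, 7 of 11 member probes had an unadjusted p under 0.05 (Tapbp, at 0.0619, did not), the median relative to B2m was 0.26, and the count over all probes was 5438. The dim Tap1 and Tap2 probes are limited by signal over background, since the stricter filter leaves both out.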
